A study of Homo sapiens with 6 samples.

Results

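GDF15, the inhibin beta subunits INHBA, INHBB and INHBE, the activin antagonist FST, the ligands TGFB1, TGFB2 and TGFB3 and the receptors TGFBR1 and TGFBR2 were followed in MIA PaCa-2 cells with and without rhCYGB. These 10 genes were taken by symbol from the 35993 genes of the deposited table, and they were chosen with the rhCYGB against untreated difference already known, so their own differences are given as a description with no p-value, and their calls are only counted, as a description too. MIA PaCa-2 is an established human pancreatic carcinoma cell line. rhCYGB is a 6His-tagged recombinant human cytoglobin, a heme protein, which the authors produced in Escherichia coli. The untreated group, labelled Control, and the rhCYGB group, given 4 µM for 48 h, held 3 libraries each. Per the labels, cells were grown with 10% FBS and 2.5% horse serum, incubated for 24 h after seeding and moved to medium with 1% FBS before treatment, and no vehicle is named for the untreated cells. Nothing in the labels says that the libraries of a group came from separate cultures, so the p-values below measure the spread between these libraries, which may be technical.

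GDF15 is a secreted, stress-induced cytokine of the TGF-beta superfamily, which signals through the receptor GFRAL together with the kinase RET. Activins are dimers of inhibin beta subunits, and follistatin, the product of FST, binds and neutralizes them. TGF-beta ligands bind TGFBR2, which recruits and phosphorylates TGFBR1, and activated TGFBR1 phosphorylates SMAD2 and SMAD3, which act in the nucleus with SMAD4. In the pancreas this pathway restrains epithelial growth, and pancreatic carcinomas often lose parts of it.

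The promoters are shown for GDF15, which was much higher after rhCYGB, and for TGFB1 and TGFB3, which differed in opposite directions. The sequences are RefSeq windows on GRCh38.p14 of 250 bases before the transcription start, 5′ to 3′ on the gene's strand, and 9 of the 10 genes (all but INHBE) had a window. Capitals mark TATAAA on the gene's strand and GGGCGG on either strand, which reads CCGCCC on the other strand. They lie at chr19:18385908-18386157 on the plus strand for GDF15, chr19:41353923-41354172 on the minus strand for TGFB1 and chr14:75981996-75982245 on the minus strand for TGFB3, the more downstream of 2 windows of that gene.
GDF15: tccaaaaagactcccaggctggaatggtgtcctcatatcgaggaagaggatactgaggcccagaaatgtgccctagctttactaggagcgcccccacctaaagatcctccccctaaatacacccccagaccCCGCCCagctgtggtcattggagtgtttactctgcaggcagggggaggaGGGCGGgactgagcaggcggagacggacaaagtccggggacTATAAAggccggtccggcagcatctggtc
TGFB1: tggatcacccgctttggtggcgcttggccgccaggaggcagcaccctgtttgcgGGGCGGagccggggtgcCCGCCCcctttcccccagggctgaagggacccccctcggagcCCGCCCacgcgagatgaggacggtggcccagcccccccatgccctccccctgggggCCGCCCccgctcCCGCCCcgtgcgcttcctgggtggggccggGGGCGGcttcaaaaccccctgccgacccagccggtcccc
TGFB3: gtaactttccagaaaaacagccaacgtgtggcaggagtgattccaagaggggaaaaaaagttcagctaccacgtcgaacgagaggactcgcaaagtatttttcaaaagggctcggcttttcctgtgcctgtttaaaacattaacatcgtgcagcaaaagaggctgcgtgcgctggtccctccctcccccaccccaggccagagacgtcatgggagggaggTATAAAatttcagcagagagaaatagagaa

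TATAAA began at position -29 in the GDF15 window, counted back from the start site, and at position -30 in the TGFB3 window. TGFB2 had it at position -29 and INHBA at position -11. Across all 35116 windows, 6.80% held TATAAA on the gene's strand. The TGFB1 window held no TATAAA and 6 GC boxes (GGGCGG on either strand), against 2 in the GDF15 window and 0 in the printed TGFB3 window, and 42.6% of all windows held at least 1. GC content was 76.8% for TGFB1, 58.4% for GDF15 and 49.2% for TGFB3, with a median of 58.0% over all windows. The ATF4-C/EBP composite letters TGATGNAA, searched on both strands, were found in none of the members' windows and in 3.14% of all windows, and the CRE letters TGACGTCA likewise in none and in 1.65%. CAGAC, the SMAD box, was present once in the GDF15 window, at position -125, and in 38.0% of all windows. Among the other members it was found in windows of TGFB2 and TGFBR1 and in the TGFB3 window that is not printed. The match in the GDF15 window shares no base with the GC boxes of that window. TGANTCA, the AP-1 letters, was present in the FST window alone among the members and in 6.57% of all windows. These matches describe letters within the windows and are not measured binding sites.

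Total counts per library ran from 34838399 to 42271299, and 14728 genes had enough counts to be tested with edgeR's quasi-likelihood test. A call required 2-fold or more and a p under 0.05 after Benjamini-Hochberg adjustment. The difference between the groups was broad, with 27.1% of the tested genes called, and with total counts in place of edgeR's TMM scaling the median log2 fold change of all genes shifted from -0.00457 to -0.169 and the share of calls that were higher from 45.8% to 33.9%. Of the markers of ductal epithelium, KRT8, KRT18 and KRT19 were abundant, EPCAM had 0 counts and CDH1 at most 2 in any library, so that part of the epithelial set was absent. The 7 ductal markers summed to 3970 to 4200 CPM in untreated and 3010 to 3220 CPM in rhCYGB libraries (CPM being the counts normalised to the TMM-adjusted library size). SOX9 was called lower at a log2 fold change of -1.32, and KRT8 was at -0.81, KRT19 at -0.61 and KRT18 at 0.04. LUM, DCN, PTPRC, CD3E and PECAM1 had 0 counts in all 6 libraries. The summed level of 7 stellate and fibroblast markers was 148 to 159 CPM in untreated and 11.5 to 13.6 CPM in rhCYGB libraries. On average COL1A2 was at 142 and 6.86 CPM and COL3A1 at 3.99 and 0.119 CPM, while ACTA2 was at 5.61 and 5.30 CPM. The summed level of 3 endothelial markers was 109 to 122 against 10.5 to 13.6 CPM, almost all of it CDH5. The 4 leukocyte markers summed to 34.3 to 38.0 CPM in untreated and 70.4 to 72.4 CPM in rhCYGB libraries, all of it CD68. The part of these markers in the differences below was not tested. All 6 libraries are labelled as the single line MIA PaCa-2, so the sums describe transcripts and do not count stellate, endothelial or leukocyte cells. In bulk RNA, fewer cells expressing a marker and less of its RNA per cell cannot be told apart.

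Of the 10 genes, 6 were tested, namely GDF15, INHBB, INHBE, TGFB1, TGFB3 and TGFBR1, and 4 were removed by the filter on low counts, namely INHBA, FST, TGFB2 and TGFBR2. Among the 6, 4 were called, 3 higher and 1 lower, beside 27.1% of all genes tested called (12.4% higher and 14.7% lower). The groups did not overlap in CPM for any of the 6, with 5 higher and 1 lower, beside 79.5% of all genes tested (39.8% higher and 39.7% lower). Since the genes were chosen on this contrast, nothing is read from these counts.

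**Figure D1:**
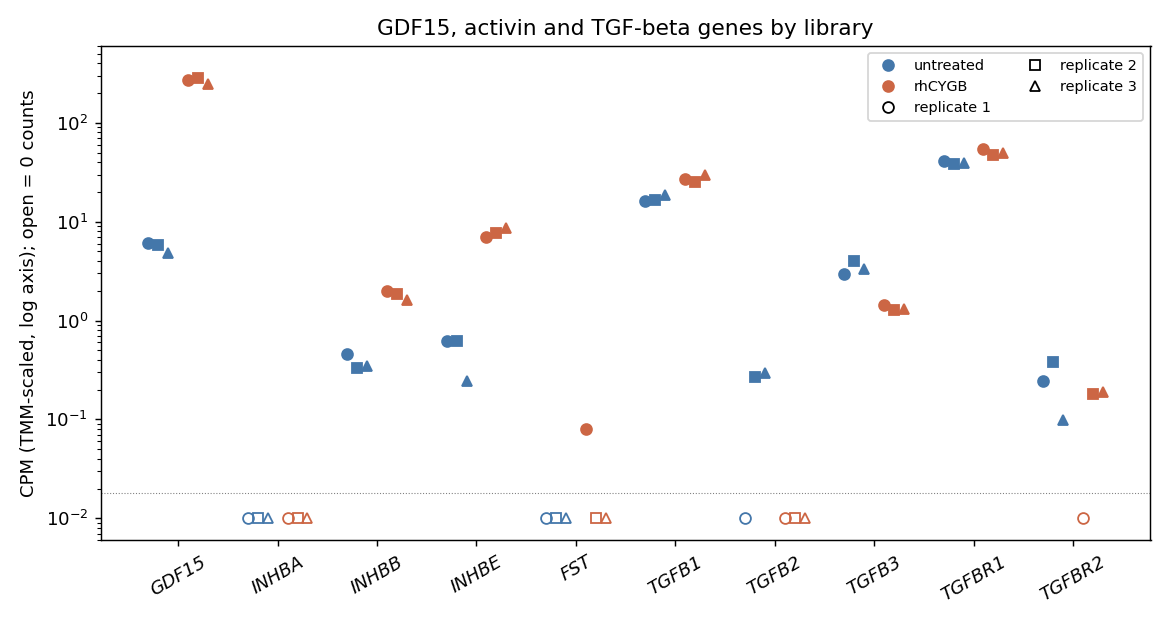
CPM of the 10 genes in each of the 6 libraries, on a log axis, with blue for untreated, orange for rhCYGB and a marker shape for each replicate; open symbols under the dotted line are libraries with 0 counts. GDF15 stands at 249 to 282 CPM in the rhCYGB libraries against 4.81 to 6.09 in the untreated ones, while INHBA is at 0 in all 6.

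GDF15 (Gene ID 9518) lies on chromosome 19 from 18496968 to 18499986 in the deposited transcript table, which names no genome build, and was counted on a single transcript of 1200 bases. It had 227, 260 and 196 counts in untreated libraries 1, 2 and 3 and 10013, 9388 and 9188 counts in rhCYGB libraries 1, 2 and 3. The lowest rhCYGB library was far above the highest untreated one, and the libraries of each group stayed close together. Scaled for depth, this was 5.57 ± 0.675 CPM in untreated and 267 ± 16.6 CPM in rhCYGB-treated cells (mean ± SD, n = 3 libraries each). That was 48.0-fold, or 5.58 on the log2 scale with a standard error of 0.073. It was among the 27 highest log2 fold changes of the 14728 genes tested. By mean FPKM, the deposited level per transcript length and depth, GDF15 ranked 8139 of the 19758 genes above 0 in untreated cells and 286 of 19073 in rhCYGB-treated cells. Relative to TGFB1, its FPKM was 0.601 to 0.871 times as large in untreated libraries and 19.6 to 25.7 times as large in rhCYGB libraries. The small RNA gene MIR3189 lies within the GDF15 locus in the table, with at most 11 counts in any library.

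ATF3, a stress-induced transcription factor, had the profile nearest to that of GDF15 over the 6 libraries, with a Euclidean distance of 0.195 between centred log2 CPM values. It stood at 5.61 CPM in untreated and 266 CPM in rhCYGB-treated cells, nearly the levels of GDF15 itself. The next nearest were GADD45G, a growth arrest gene, at 0.447, UNC5B, a netrin receptor, at 0.697, CHST1, a sulfotransferase, at 0.702, and KLHDC7B at 0.878. These distances share the same 6 libraries and depths, and mostly measure the difference between the groups.

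Of the activin subunits, INHBE and INHBB were higher after rhCYGB and INHBA was not detected. INHBE (Gene ID 83729, chromosome 12, 57849090 to 57851808) encodes the beta E subunit, best known from liver. It had 23, 28 and 10 counts in untreated libraries 1, 2 and 3 and 259, 255 and 317 counts in rhCYGB libraries 1, 2 and 3. The groups were well apart, and the third untreated library was the low one, at 0.245 CPM with a 95% Poisson interval of 0.118 to 0.451 against 0.617 and 0.625 CPM in the others. Such intervals cover counting error only. Mean levels were 0.496 ± 0.217 and 7.75 ± 0.817 CPM (SD, n = 3 each), and the log2 fold change was 3.96 with a standard error of 0.24. Without the third untreated library it was 3.63, and on the log2(FPKM + 1) scale, where the pseudocount of 1 exceeds the untreated mean of 0.185 FPKM, 1.61. The profiles nearest to INHBE were those of KRT16, an epithelial keratin, at a distance of 0.391, DUSP15, a phosphatase, at 0.576, GPR1 at 0.724, LAMP3, a lysosomal membrane protein, at 0.728, and DDIT3, the stress factor CHOP, at 0.731.

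INHBB (Gene ID 3625, chromosome 2, 121103712 to 121109379), the beta B subunit, had 17, 15 and 14 counts in the untreated and 74, 62 and 59 counts in the rhCYGB libraries. All rhCYGB libraries lay above all untreated ones, at 1.82 ± 0.200 against 0.378 ± 0.0679 CPM (SD, n = 3 each). The log2 fold change was 2.26 (standard error 0.28), which fell to 0.41 on log2(FPKM + 1), under 2-fold. INHBE exceeded INHBB per length by 4.56, 5.37 and 7.04 times in FPKM in the rhCYGB libraries and by 1.82, 2.42 and 0.969 times in the untreated ones. In untreated cells the 2 subunits were therefore not separated beyond the spread of the libraries, while in rhCYGB-treated cells INHBE was the higher one in each library.

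INHBA (Gene ID 3624, chromosome 7, 41724712 to 41742688), the beta A subunit of activin A, had 0 counts in each of the 6 libraries, and so did INHBA-AS1, which overlaps it. A count of 0 allows up to 3 counts, or 0.0669 to 0.0902 CPM depending on the library. FST (Gene ID 10468, chromosome 5, 52776459 to 52782964) had 3 counts in the first rhCYGB library, all on the transcript of the FST317 isoform, and 0 in the other 5. Transcripts of INHBA were thus not detectable at this depth in either group, and those of FST were at the limit of detection.

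TGFB1 and TGFB3 differed in opposite directions. TGFB1 (Gene ID 7040, chromosome 19, 41836228 to 41859827), the most widely expressed TGF-beta ligand, had 602, 740 and 756 counts in the untreated and 1004, 847 and 1089 counts in the rhCYGB libraries. The highest untreated library reached 18.5 CPM and the lowest rhCYGB library 25.5 CPM, so the groups did not overlap. From 17.1 ± 1.28 to 27.3 ± 2.06 CPM (SD, n = 3 each) the log2 fold change was 0.68 (standard error 0.073), under 2-fold. It depended on the scaling, at 0.51 when scaled by total counts alone and 0.45 on log2(FPKM + 1).

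TGFB3 (Gene ID 7043, chromosome 14, 76424404 to 76449354) had 109, 178 and 137 counts in the untreated and 54, 43 and 48 counts in the rhCYGB libraries. All rhCYGB libraries lay below all untreated ones, with 1.35 ± 0.0904 against 3.42 ± 0.526 CPM (SD, n = 3 each) and a log2 fold change of -1.34 (standard error 0.19). On log2(FPKM + 1) the value was -0.53, under 2-fold. Transcript variant 1 carried 92.7% to 96.6% of the TGFB3 counts in the untreated libraries and 100%, 60.5% and 100% in rhCYGB libraries 1, 2 and 3. The lower share rested on 17 counts assigned to variant 3 in the second rhCYGB library.

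TGFB2 (Gene ID 7042, chromosome 1, 218518626 to 218617961) had 0, 12 and 12 counts in the untreated libraries and 0 in each rhCYGB library. The first untreated library was thus at 0 as well, and the groups were not separated. Taking the 3 ligands per length, TGFB1 made up 83.2% to 87.2% of their summed FPKM in untreated and 95.4% to 96.6% in rhCYGB libraries, with no overlap. TGFB3 made up 12.8% to 16.2% and 3.36% to 4.57%.

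TGFBR1 (Gene ID 7046, chromosome 9, 101867395 to 101916474), the type I receptor, had 1536, 1707 and 1611 counts in the untreated and 2009, 1565 and 1831 counts in the rhCYGB libraries. The groups did not overlap in CPM, at 39.6 ± 1.57 against 50.3 ± 3.56 (SD, n = 3 each), but they did in FPKM, where the highest untreated library stood at 5.93 and the lowest rhCYGB library at 5.87. The log2 fold change was 0.35 (standard error 0.058), and 0.18 when scaled by total counts alone. TGFBR2 (Gene ID 7048, chromosome 3, 30647994 to 30735634), the ligand-binding type II receptor, had 9, 17 and 4 counts in the untreated and 0, 6 and 7 counts in the rhCYGB libraries, and the groups overlapped. Per length, TGFBR1 exceeded TGFBR2 by 74.5 to 293 times in the 5 libraries where TGFBR2 was above 0. Both receptors are needed for canonical TGF-beta signalling, and the type II receptor had at most 17 counts in any library. These are RNA counts, and whether the cells signal in response to TGF-beta was not tested.

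**Figure D2:**
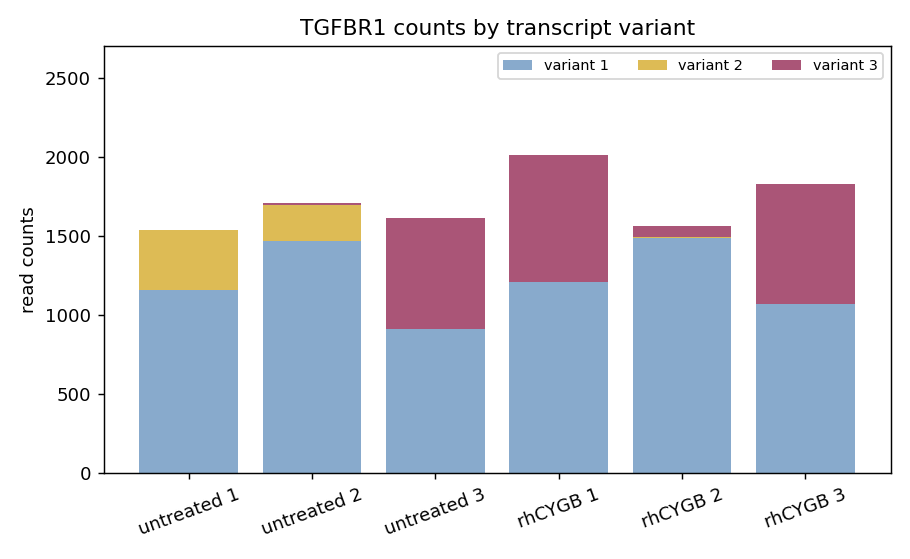
Read counts of TGFBR1 in each of the 6 libraries, stacked by the 3 transcript variants of the deposited table. The bar heights are alike, between 1536 and 2009 counts, while the split between variants 2 and 3 differs among libraries of one group.

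The assignment of TGFBR1 reads to its 3 transcript variants did not follow the groups. Variant 1 held 56.4% to 86.1% of the counts in the untreated and 58.5% to 94.8% in the rhCYGB libraries. Variant 3 had 0, 9 and 702 counts in untreated libraries 1, 2 and 3 and 800, 73 and 760 counts in rhCYGB libraries 1, 2 and 3. Variant 2 had 375, 229 and 0 counts in the untreated and 0, 8 and 0 in the rhCYGB libraries. The share of variant 3 reached 43.6% in one untreated library and fell to 4.66% in one rhCYGB library, so the spread within each group was as wide as that between the groups.

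Per transcript length, the untreated cells had TGFB1 (5.72 ± 0.477 FPKM, SD, n = 3) and TGFBR1 (5.71 ± 0.228 FPKM) at the top of the 10 genes, followed by GDF15 (4.31 ± 0.486 FPKM) and TGFB3 (0.931 ± 0.143 FPKM). INHBE (0.185 ± 0.0794 FPKM) and INHBB (0.106 ± 0.0165 FPKM) came next, and TGFBR2 (0.0457 ± 0.0270 FPKM) and TGFB2 (0.0272 ± 0.0236 FPKM) last of those detected. The ranges of TGFB1 and TGFBR1, of INHBE and INHBB, and of TGFBR2 and TGFB2 overlapped, so these neighbours were not ordered beyond the spread of the libraries. After rhCYGB the order was GDF15 (185 ± 7.85 FPKM, SD, n = 3), TGFB1 (8.18 ± 0.788 FPKM), TGFBR1 (6.44 ± 0.544 FPKM), INHBE (2.61 ± 0.308 FPKM), INHBB (0.469 ± 0.0491 FPKM) and TGFB3 (0.339 ± 0.0225 FPKM), and no 2 neighbours of these 6 overlapped.

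**Figure D3:**
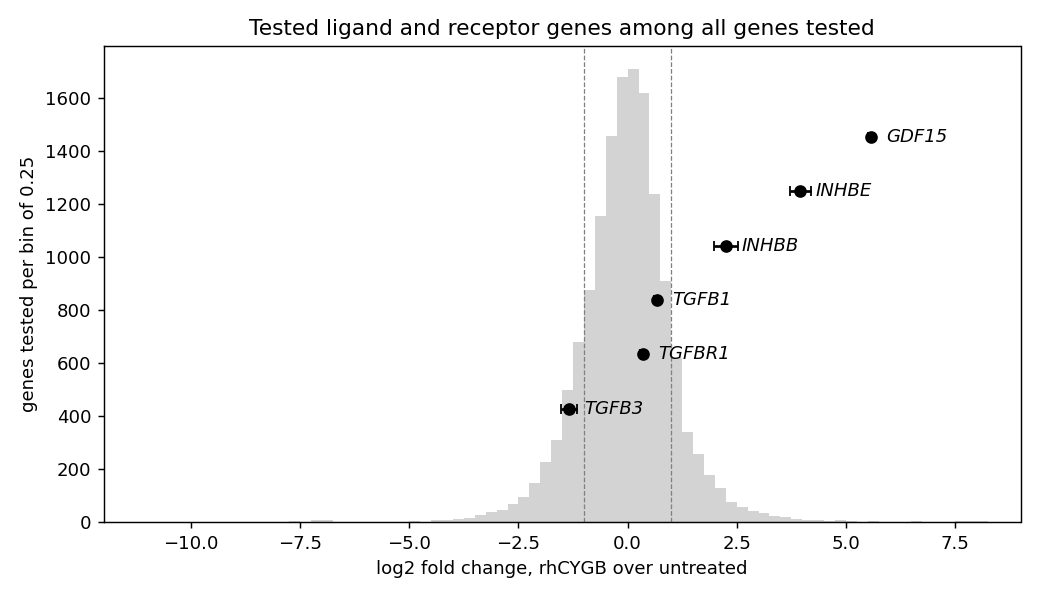
Log2 fold changes (rhCYGB over untreated, horizontal axis) of the 6 tested genes, with bars for the standard error, over the distribution of all 14728 genes tested in bins of 0.25 (grey, vertical axis); the heights of the black points are arbitrary and dashed lines mark 2-fold. GDF15 at 5.58 and INHBE at 3.96 lie in the far right tail, TGFB1 at 0.68 and TGFBR1 at 0.35 within the bulk, and TGFB3 at -1.34 on the left.

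The rest of the pathway was examined in 6 lists of 106 genes in all, none of them one of the 10, with tests adjusted over all genes. Of 77 with enough counts, 20 were called higher and 15 lower, or 45.5%, beside 27.1% of all genes tested, and their median log2 fold change was 0.29. The 77 include 9 regulators of GDF15 or INHBE, of which 6 were called higher. All lists were chosen with earlier results of these data known. Nothing about the pathway as a whole, or about any single list below, is therefore read from the counts of calls.

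Among 12 other ligands of the superfamily, 5 were tested, 3 were called lower and none higher. That was 60% called, beside 27.1% of all genes tested (14.7% lower). INHA, the alpha subunit that forms inhibins with the beta subunits, had 50, 43 and 48 counts in the untreated and 7, 5 and 10 counts in the rhCYGB libraries, a log2 fold change of -2.48 (edgeR adjusted p = 1.76e-05). INHA was lower in every rhCYGB library than in any untreated one. It passed the filter on low counts only through the untreated libraries, where it was high, so this separation is given as a description. GDF11, a relative of myostatin, had a log2 fold change of -1.80 (edgeR adjusted p = 2.17e-08) and AMH, the anti-Müllerian hormone, one of -1.72 (edgeR adjusted p = 6.98e-09). The median log2 fold change of the 5 tested ligands was -1.72, beside -0.00457 for all genes tested.

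Among 15 other receptors and co-receptors, 10 were tested, 4 rose by 2-fold or more and none fell by 2-fold. The share called was 40%, beside 27.1% of all genes tested (12.4% higher). ACVR2B, a type II activin receptor, rose by 1.67 on the log2 scale, with 3.84 ± 0.0909 CPM in untreated and 12.2 ± 0.378 CPM in rhCYGB libraries (SD, n = 3 each, edgeR adjusted p = 6.74e-10). ACVR1 rose by 1.43 (edgeR adjusted p = 6.84e-10) and BMPR1B by 1.24 (edgeR adjusted p = 4.81e-05). ACVR1B, the type I activin receptor, named after its value was seen, rose by 1.05 (edgeR adjusted p = 2.21e-10), and its call was lost under 4 of 16 alternatives, among them total counts and upper-quartile scaling. GFRAL, the receptor of GDF15, had 0 counts in all 6 libraries, and its partner RET had 164, 181 and 145 counts in the untreated and 158, 138 and 127 in the rhCYGB libraries, with a log2 fold change of -0.02 (edgeR adjusted p = 0.920). Both were named for their role, after their values were seen. The median log2 fold change of the 10 receptors was 0.35.

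Of 24 genes that store, activate or bind the ligands outside the cell, 13 were tested, 6 fell by 2-fold or more and none rose by 2-fold. The share called was 46.2%, beside 27.1% of all genes tested (14.7% lower). ITGB8, an integrin subunit that activates latent TGF-beta, went from 10.4 ± 0.239 down to 0.977 ± 0.0456 CPM (SD, n = 3 each). This was -3.41 on the log2 scale (edgeR adjusted p = 3.85e-12). FSTL1, a follistatin-like protein, had a log2 fold change of -1.85 (edgeR adjusted p = 2.09e-10) and NRROS, a membrane protein that anchors latent TGF-beta, one of -1.67 (edgeR adjusted p = 4.26e-11). With the adjusted p alone, which 77.6% of all genes tested passed, 12 genes of the list were lower and 1 was higher. That one was FSTL3, a close relative of follistatin, named after its value was seen, with a log2 fold change of 0.64 (edgeR adjusted p = 1.48e-06). MMP14, a membrane protease at -1.03 and also named after its value was seen, lost its call without the second untreated library (-0.84) or the third rhCYGB library (-0.83). The median of the 13 genes was -0.89.

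The SMADs and their regulators had calls both ways, with 5 of 23 tested genes called higher and 4 lower and a median log2 fold change of 0.53. In all 39.1% were called, beside 27.1% of all genes tested (12.4% higher and 14.7% lower). Of the 5, USP15 at 1.05 and PPM1A at 1.00 stood at the 2-fold limit, and both lost the call with total counts, with upper-quartile scaling and without the first rhCYGB library (0.99 and 0.98). PPM1A also lost it without the second untreated library, at 0.99, with DESeq2's test or size factors, and with at least 10 counts required in every library. USP15 was called in 11 of 16 alternatives and PPM1A in 9. SMAD7, an inhibitory SMAD, had 14, 22 and 8 counts in the untreated and 50, 58 and 55 counts in the rhCYGB libraries, a log2 fold change of 2.09 (edgeR adjusted p = 4.46e-05). TGIF1, a repressor of SMAD-dependent transcription, rose by 1.93 (edgeR adjusted p = 3.89e-14), with 62.7 ± 4.28 CPM in untreated and 238 ± 9.67 CPM in rhCYGB libraries (SD, n = 3 each). SKIL, another repressor of SMADs, rose by 1.56 (edgeR adjusted p = 3.10e-10). SMAD6, the other inhibitory SMAD, moved the opposite way, with a log2 fold change of -2.15 (edgeR adjusted p = 0.000102). Its rhCYGB counts were 11, 7 and 26, and without the third rhCYGB library the value was -2.82. FKBP1A, which binds type I receptors, had one of -1.60 (edgeR adjusted p = 2.04e-14) and TGIF2, a relative of TGIF1, one of -1.46 (edgeR adjusted p = 4.60e-10). SMAD3, named after its value was seen, had a log2 fold change of -1.30 (edgeR adjusted p = 6.61e-13), with 124 ± 2.28 CPM in untreated and 50.4 ± 2.14 CPM in rhCYGB libraries (SD, n = 3 each). Its partners SMAD2 and SMAD4 had log2 fold changes of 0.98 and 0.53, under 2-fold.

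Genes known to respond to TGF-beta or activin also had calls both ways, with 7 of 21 tested genes called higher and 2 lower and a median of 0.35. In all 42.9% were called, beside 27.1% of all genes tested (12.4% higher and 14.7% lower). SMAD7 and SKIL, described above, belong to this list as well. COL4A1, a basement membrane collagen, had a log2 fold change of -1.80 (edgeR adjusted p = 2.30e-10) and CCN2, a matricellular protein, one of -1.04 (edgeR adjusted p = 9.11e-07). Without the first untreated library CCN2 was at -0.97 and without the third rhCYGB library at -0.95, both under 2-fold. One gene called higher, PTHLH, named after its value was seen, had 0 counts in every untreated library and 40, 39 and 27 in the rhCYGB libraries. COL1A1, CDKN2B, MMP2 and MMP9 were not tested for want of counts.

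Of 9 transcription factors known to act on GDF15 or INHBE, or on related stress genes, all were tested, 6 rose by 2-fold or more and none fell, with a median log2 fold change of 2.83. The share called was 66.7%, beside 27.1% of all genes tested (12.4% higher). ATF3 had 248, 239 and 198 counts in the untreated and 9723, 9160 and 9604 counts in the rhCYGB libraries, a log2 fold change of 5.57 (edgeR adjusted p = 6.64e-17). DDIT3 (14.7 to 248 CPM) rose by 4.09 on the log2 scale, CEBPB by 3.00, XBP1 by 2.86 and KLF4 by 2.83. ATF4, the central factor of the integrated stress response, rose by 1.95. ATF6 at 0.63 and EGR1 at 0.28 passed the adjusted p but not 2-fold. This list was written knowing that ATF3, DDIT3 and ATF4 were higher in these libraries, so its count is not independent evidence of a direction. In the deposited table DDIT3 overlaps MARS1, CEBPB overlaps CEBPB-AS1, FKBP1A overlaps the read-through gene FKBP1A-SDCBP2, TGIF2 overlaps TGIF2-RAB5IF, GDF11 overlaps SARNP and ACVR2B overlaps ACVR2B-AS1. Whether the counting used strand is not given in the sources used here, so reads shared with these neighbours cannot be told apart.

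Several pathway genes named above were not called on the log2(FPKM + 1) scale, where INHA was at -0.67, GDF11 at -0.53, ITGB8 at -0.94, SMAD6 at -0.41 and COL4A1 at -0.95, and ACVR2B at 0.51, BMPR1B at 0.34, SMAD7 at 0.39 and SKIL at 0.85. With at least 10 counts required in every library, INHA, SMAD6, SMAD7, PTHLH and PPM1A were not called. That left 17 other pathway genes called higher and 13 lower. INHA had passed the usual filter through the untreated libraries, and SMAD7 and PTHLH through the rhCYGB libraries, where each was high. Their calls and p-values are therefore no separate evidence of a direction.

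**Figure D4:**
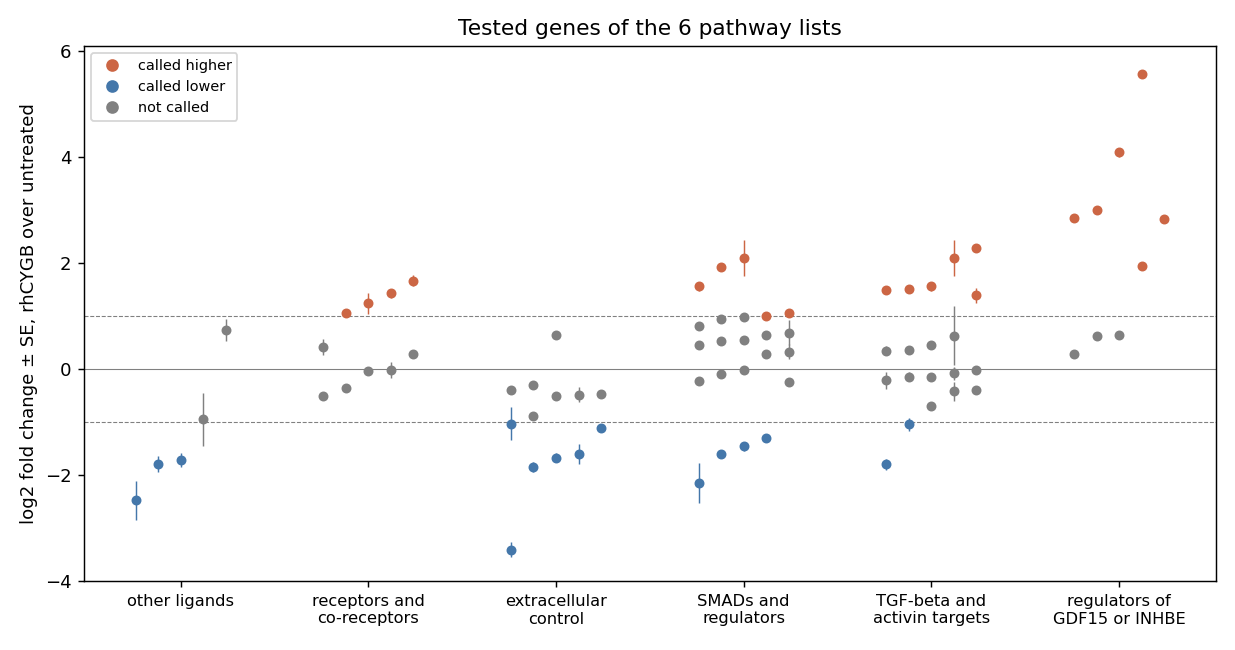
Log2 fold change with its standard error (rhCYGB over untreated) of each tested gene of the 6 lists, in orange where called higher, blue where called lower and grey where not called; dashed lines mark 2-fold, and PTHLH, at 0 counts in every untreated library, is left out. The called genes are all lower among other ligands and extracellular genes, all higher among receptors and among regulators of GDF15 or INHBE, and split among SMADs and targets. Over all genes tested, 12.4% were called higher and 14.7% lower, and the lists were chosen with earlier results known.

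**Figure D5:**
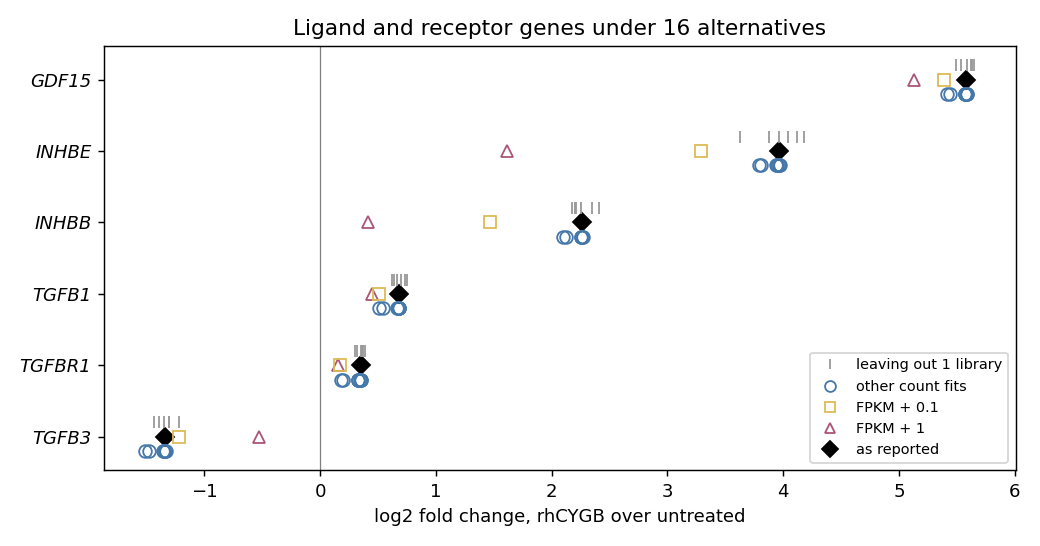
Log2 fold change (rhCYGB over untreated) of the 6 tested genes as reported and under 16 alternatives of normalization, filter, tool, counting, pairing and left-out library. All 6 genes keep their sign, and the values on log2(FPKM + 1) are nearest to 0, at 5.13 for GDF15, 1.61 for INHBE and 0.41 for INHBB.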

How the data were processed

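RNA of MIA PaCa-2 cells was measured by stranded mRNA sequencing in 3 untreated and 3 rhCYGB libraries, grouped by their labels. The authors checked reads with FastQC 0.11.7, mapped trimmed reads with HISAT2 2.1.0 and assembled transcripts with StringTie 2.1.3b, the versions being those of the submitters' processing notes. Those notes list mm10, a mouse build, and the files name none, so positions are given as deposited. The deposited positions do not line up with the GRCh38.p14 promoter windows. GDF15 starts at 18496968 as deposited, while its window ends at 18386157, so the 2 sets should not be compared. The authors deposited read counts per gene and per transcript, not normalized, and FPKM values, scaled to transcript length and depth. The deposited TPM columns were not used.

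Counts were tested with edgeR 4.0.16 in R 4.3.3 (filterByExpr, TMM, glmQLFit and glmQLFTest on all 6 libraries, Benjamini-Hochberg over all genes tested). CPM uses TMM-scaled library sizes, log2 CPM a prior count of 2. Standard errors of log2 fold changes, also those in the figures, are the absolute log2 fold change over the square root of edgeR's F statistic. They rest on a spread moderated across genes and can be smaller than a gene's own libraries would give. For INHBE the pooled SD of log2 CPM within groups was 0.493. Depth set the precision: the floor of 3 counts is 0.0669 to 0.0902 CPM. The members and the lists were chosen with earlier results of these data known. Besides the 10 genes, the text names up to 3 rises and 3 falls per list with a mean CPM of at least 1, the transcription factors, the 5 nearest profiles of GDF15 and of INHBE, and marker genes. Some genes that this rule names are not reported here. The tests were checked on simulated counts in which 196 of 14504 tested genes carried a known change. With the right sign, edgeR recovered 95.4% of these, DESeq2 92.3% and limma 90.3%. Far fewer genes differed there than in the data, so the check does not cover the effect of the scaling. Alternatives changed scaling, the filter on low counts, the tool, the counting and the pairing, or left out 1 library, and used DESeq2 1.42.0 and limma 3.58.1.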

Additional observations from a re-analysis of the deposited data

How the results depend on the processing

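On log2(FPKM + 1) with limma, which shrinks weakly expressed genes by construction, 1977 genes were called in place of 3998, 12 other pathway genes higher and 7 lower in place of 20 and 15, and 2 of the ligand and receptor genes (GDF15 and INHBE) in place of 4. Under the other alternatives these counts stayed within 1.5 times, and the 6 tested ligand and receptor genes kept their sign under all 16. Leaving out each library in turn gave 18 to 21 pathway genes called higher, 14 or 15 lower, and 4 or 5 of the ligand and receptor genes. The fifth was TGFB2, called when untreated library 1 or any 1 of the rhCYGB libraries was left out and with no filter on low counts; its rhCYGB libraries are all at 0, as is untreated library 1. The replicate numbers gave no sign of pairing. Correlations of same-numbered deviations across genes were -0.0479, 0.00715 and 0.00554, and those of differently numbered ones ran from -0.0551 to 0.0536. With 3 libraries per group, these values cannot exclude pairing. With the number as a replicate block, 3978 genes were called, 20 and 15 pathway genes and the same 4 ligand and receptor genes. Depth limits INHBA, FST, TGFB2 and TGFBR2, for which only counts are given.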
